A study of Mus musculus with 7 samples.

Results

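Vip interneurons were examined in a single-cell RNA sequencing study of mouse cortex. They were chosen by their own counts, as cells with at least 2 unique molecular identifiers (UMIs, counted transcripts) of Gad1 and Gad2 together, at most 1 of Slc17a7, at least 3 of Vip, fewer than 5 of Sst and fewer than 2 of Pvalb. Of 32985 cells, 386 met this rule, or 1.17%, and they made up 16.2% of the 2378 GABA cells (Gad1 and Gad2 at least 2, Slc17a7 at most 1). Tissue came from the motor cortex (MC) and the hand-excised ventromedial prefrontal cortex (PFC) of B6129SF1/J mice at an age of 30 postnatal days, housed with 12 h of light and 12 h of darkness per day. DTA mice were Opn4-Cre/+; Brn3b-zDTA/+ and CTRL mice were Opn4-Cre/+; Brn3b-+/+. Both genotypes thus carry Cre from the melanopsin locus. In DTA mice, diphtheria toxin A is meant to kill the retinal ganglion cells that use both melanopsin and Brn3b. These are a part of the intrinsically photosensitive retinal ganglion cells (ipRGCs), which send light signals to the brain. The ablation lies in the retina and was not analysed here. Vip cells numbered 49 in the MC DTA library, 66 in the MC CTRL library, 19, 56 and 48 in PFC DTA replicates 1 to 3, and 39 and 109 in PFC CTRL replicates 1 and 2. The protocol speaks of a brain per sample, but the labels do not say whether any libraries share an animal. P-values therefore measure the spread between these libraries, which may be technical.

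Vip interneurons arise mostly in the caudal ganglionic eminence of the embryonic brain, while Sst and Pvalb interneurons arise in the medial eminence. In the cortex many of them contact Sst interneurons rather than pyramidal cells, so that their firing releases pyramidal cells from inhibition. They respond to acetylcholine and serotonin through fast ion channels, and they use GABA together with peptides. The peptide VIP itself acts on receptors that raise cyclic AMP. Within the class, Calb2-positive bipolar cells and Cck-positive basket cells are the commonly described kinds.

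The promoter window of mouse Vip at chr10:5638968-5639267 (GRCm38.p6, plus strand, RefSeq) runs from 250 bases before to 50 after the start of the gene whose transcripts chose these cells:
Vip: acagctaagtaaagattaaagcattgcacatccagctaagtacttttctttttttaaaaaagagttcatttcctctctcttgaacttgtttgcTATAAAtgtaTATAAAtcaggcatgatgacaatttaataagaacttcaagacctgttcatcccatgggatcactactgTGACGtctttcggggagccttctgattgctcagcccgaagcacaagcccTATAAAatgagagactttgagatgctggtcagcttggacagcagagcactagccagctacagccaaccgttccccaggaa
Capitals mark TATAAA, the letters of a TATA box, found 3 times, and TGACG, the core of the cyclic AMP response element, found 1 time. Both were searched on both strands. Of 32851 mouse promoter windows of this length, 13.6% held TATAAA and 20.8% held TGACG. A match is a description of the sequence only. The Vip gene lies at chromosome 10, 5639218 to 5647617, plus strand, in the annotation of the same build (mm10).

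Vip was present far above the minimum in most of the chosen cells. Their median was 52 Vip UMIs, and 328 of the 386 cells, or 85.0%, held at least 20. Just inside the threshold, 6 cells had 3 or 4 Vip UMIs. Just outside it, 6 GABA cells had 2 and 101 had 1. A further 6 GABA cells had at least 3 Vip UMIs but were left out for Sst or Pvalb. These counts describe the rule and were not tested.

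**Figure D1:**
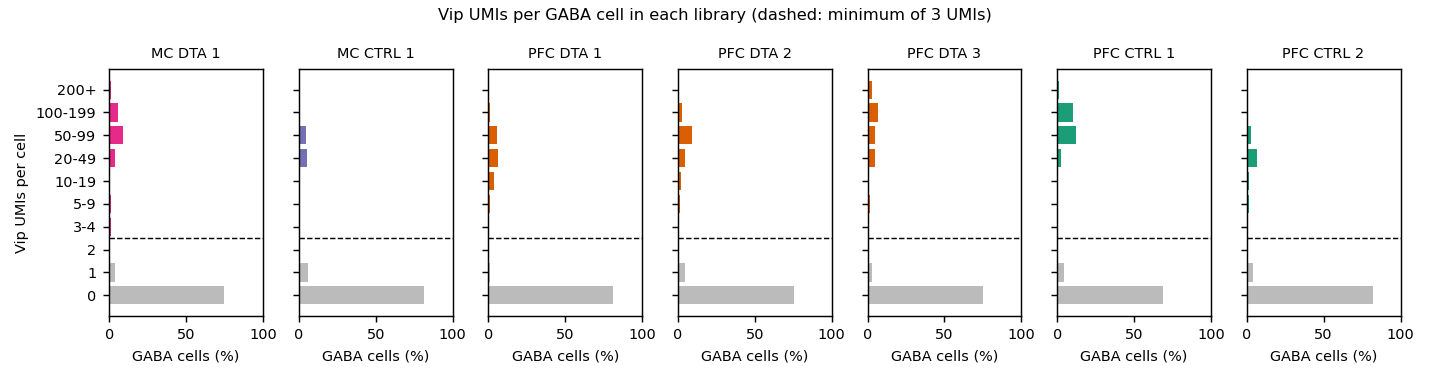
Share of GABA cells (x axis, percent) by number of Vip UMIs per cell (y axis, binned) in each of the 7 libraries; grey bars lie below the minimum of 3 UMIs (dashed line) and coloured bars above it. Few cells lie next to the threshold: 6 cells of all libraries had 3 or 4 Vip UMIs and 6 had 2.

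Gad1, Gad2 and Vip chose the cells, so their levels are a description, and the label was checked on other markers. In counts per 1000000 UMIs summed over the Vip cells of a library (CPM), Gad1 averaged 914 ± 98.4 and Gad2 545 ± 129 (SD, n = 7 libraries), and Vip ranged from 11817 in PFC DTA 2 to 17737 in PFC DTA 1. Tac2, which encodes neurokinin B, averaged 2295 ± 364 CPM in Vip cells, against 149 ± 132 in Sst cells, 1.70 ± 1.61 in Pvalb cells and 153 ± 63.0 in other GABA cells. Crh, which encodes corticotropin-releasing hormone, averaged 1175 ± 459 CPM in Vip cells, against 205 ± 92.0, 1.27 ± 1.05 and 26.5 ± 23.4 CPM in those 3 classes. Both peptides had their highest mean in Vip cells, although 82 of the 386 cells had no UMI of either. The 6 genes used as markers of caudal origin (Prox1, Adarb2, Htr3a, Npas1, Nr2f2 and Sp8) summed to 1601 to 2007 CPM in Vip cells, against 279 to 355 CPM in all other GABA cells. Lhx6, the transcription factor that marks medial origin, had 0 UMIs in the Vip cells of all 7 libraries.

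Depth and stray RNA differed between the libraries. Vip cells had a median of 7459 UMIs in MC DTA and 2780 in MC CTRL, of 2231, 5576 and 7613.5 in PFC DTA 1 to 3, and of 5928 and 2053 in PFC CTRL 1 and 2, so that MC DTA, PFC DTA 2, PFC DTA 3 and PFC CTRL 1 were deep and the others shallow. A Vip UMI was present in 6.06% of 6042 excitatory neurons (Slc17a7 at least 5 UMIs), which should lack the gene, and the median depth was 4006 UMIs in Vip cells against 9347.5 in those neurons. Cells with at least 5 UMIs over 27 markers of glia, vessels and blood numbered 54 of 386, namely 13 in MC DTA, 9 in MC CTRL, 1, 5 and 16 in PFC DTA 1 to 3, and 4 and 6 in PFC CTRL 1 and 2. The oligodendrocyte markers summed to 93.4 CPM in MC DTA Vip cells and 2423 in MC CTRL, to 86.3, 94.9 and 3680 in PFC DTA 1 to 3, and to 104 and 1061 in PFC CTRL 1 and 2. The endothelial markers summed to 268 and 176 CPM in the MC libraries and to 0 to 43.2 CPM in the PFC libraries. Doublet calls marked 8 of the 386 cells, and 0 Vip barcodes were shared between libraries. The libraries shared 7 to 92 cell barcodes per pair.

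The share of GABA cells that were Vip cells did not separate the genotypes in the PFC. It was 17.8%, 20.1% and 21.9% in PFC DTA 1 to 3, against 26.4% and 13.0% in PFC CTRL 1 and 2. The DTA shares lay between the CTRL ones, of which the higher came from the deep library and the lower from the shallow one. The means were 19.9% ± 2.08 in DTA (SD, n = 3) and 19.7% ± 9.41 in CTRL (n = 2), a difference of 0.221 points (exact two-sided permutation test, p = 0.9, where 3 against 2 libraries allow no p below 0.1). In the single MC libraries, the share was 20.9% in DTA and 11.9% in CTRL, and the CTRL library was the shallower one. After every cell was thinned to 2000 UMIs and shallower cells were left out, the PFC difference was 2.34 points. The thinned shares were 15.3%, 16.6% and 24.0% in PFC DTA 1 to 3, and 24.2% and 8.36% in PFC CTRL 1 and 2. In the MC they were 19.6% in DTA and 8.59% in CTRL, so these gaps remained. The part of depth was not tested further.

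Vip cells were a mixed group in their peptides and surface genes. To compare libraries of unequal depth, each cell was thinned to 2000 UMIs, which left out 87 Vip cells (52 of them in PFC CTRL 2 and 21 in MC CTRL) and kept 299 Vip cells, 1629 other interneurons and 5969 excitatory neurons. Cnr1, the cannabinoid receptor, was detected in 77.3% of Vip cells, 35.5% of other interneurons and 19.2% of excitatory neurons. These other interneurons pool the Sst, Pvalb and other GABA cells. In summed levels Cnr1 overlapped between Vip cells (1381 to 2460 CPM) and other GABA cells (664 to 1747 CPM). In PFC CTRL 1 it was higher in other GABA cells, at 1747 against 1516 CPM. Cxcl14, a chemokine gene, was found in 64.2% of Vip cells and 12.6% of other interneurons. Its summed level was 2352 to 4147 CPM in Vip cells, but other GABA cells held it too, at 679 to 1672 CPM. Tac2 (56.2% against 4.67%), Crh (55.5% against 5.95%), Htr3a (36.5% against 2.46%), Penk (37.1% against 2.21%) and Pthlh (32.1% against 4.24%) were likewise found in a larger share of Vip cells than of other interneurons. Penk was also found in 3.90% of excitatory neurons. Cck was found in 65.9% of Vip cells, but also in 64.3% of other interneurons and 85.3% of excitatory neurons, so its share is not above that of cells outside the class. Without thinning, Cck was found in 77.5% and Crh in 65.3% of the 386 cells. The choline transporter Slc5a7 was found in 11% of Vip cells and 0.307% of other interneurons and the vesicular acetylcholine transporter Slc18a3 in 1.67% of Vip cells. Chat, the enzyme that makes acetylcholine, was seen in 9 of 386 unthinned cells, or 2.33%.

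The subset genes overlapped in uneven ways. Tac2 was detected in 68.7% of cells with Crh and in 40.6% of cells without it, and Cxcl14 in 82.7% of cells with Tac2 and 40.5% of cells without. Cells with Calb2, the calcium-binding protein calretinin, had Cck less often (49%, against 74.4% of cells without Calb2) and Cxcl14 less often (47.0% against 72.9%), but Penk more often (48.0% against 31.7%). Sncg, a basket-cell gene, was found in 14.7% of cells with Cck and 1.0% of cells without. Crh was found in 52.0% of cells with Calb2 and 57.3% of the rest. Single libraries differed from the pooled shares: in PFC CTRL 1, Penk was found in 22.2% of cells with Calb2 and 47.6% of the rest, and in PFC CTRL 2, Tac2 was found in 54.2% of cells with Crh and 63.6% of the rest. These shares pool the cells of 7 libraries, cells of a library are not replicates, and the shares were not tested.

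The summed levels of the class peptides varied less for Tac2 than for Penk or Cck. Tac2 was at 2302 CPM in MC DTA and 2200 in MC CTRL, 2136, 2724 and 1736 in PFC DTA 1 to 3, and 2173 and 2797 in PFC CTRL 1 and 2. Penk was at 808 and 375 CPM in MC DTA and MC CTRL, 151, 893 and 289 in PFC DTA, and 449 and 225 in PFC CTRL, and its lowest and highest libraries were both PFC DTA. Cck was at 3821 and 4252 CPM in the MC libraries, 4165, 8266 and 6046 in PFC DTA, and 5182 and 10440 in PFC CTRL, and the part of stray RNA from excitatory neurons, most of which also hold it, was not tested. Cxcl14 lay between 2352 CPM in PFC DTA 1 and 4147 CPM in MC DTA, and Cnr1 between 1381 CPM in PFC DTA 1 and 2460 CPM in PFC CTRL 2.

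**Figure D2:**
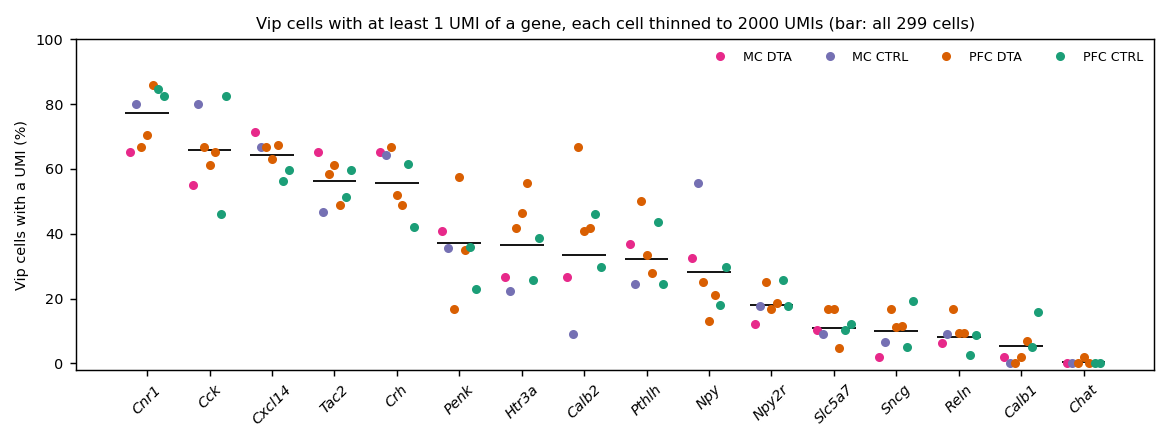
Share of Vip cells with at least 1 UMI (y axis, percent) for 16 genes (x axis) after thinning each cell to 2000 UMIs; each point is a library, coloured by group, and each bar is the share over all 299 cells. Calb2 points of the MC libraries lie at 26.5% and 8.89%, below the 29.8% to 66.7% of the PFC libraries.

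Against Sst cells (486 cells, Sst at least 5 UMIs), Vip cells were higher in most genes of the caudal lineage and lower in most of the medial lineage. UMIs were summed per library and class and tested by edgeR (quasi-likelihood test, library as a block), with Benjamini-Hochberg adjusted p-values held to 0.05. The 6 genes of the rule were left out of the tests. Of 7752 genes, 26.6% passed, 1029 (13.3%) higher and 1033 (13.3%) lower in Vip cells, with a median log2 fold change of 0.02 over all genes. Of 10 genes of the caudal list (9 transcription factors and Adarb2, an RNA-binding relative of editing enzymes), 8 rose and 1 fell, with a median of 1.65. Adarb2 was at 755 ± 135 CPM in Vip cells against 1.08 ± 1.84 in Sst cells (log2 fold change 8.96, SE 0.217, adjusted p 2.2e-34). Prox1, a transcription factor that caudal interneurons need to mature, was at 218 ± 48.8 against 0.193 ± 0.510 CPM (8.40, SE 0.322). Of 8 medial genes, 1 rose and 5 fell, with a median of -2.58. Satb1, needed for Sst cell maturation, was at 40.7 ± 15.9 against 653 ± 146 CPM (-4.02, SE 0.140), and Sox6 at 0.553 ± 1.46 against 79.2 ± 22.0 CPM (-6.54, SE 0.461). Lhx6 was at least 50.5-fold lower, set against a floor of 3 UMIs over all Vip cells.

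Signalling molecules and receptors split the 2 classes further. Cxcl14 was at 3250 ± 660 CPM in Vip cells against 16.9 ± 21.5 in Sst cells (log2 fold change 7.75, SE 0.394), and the parathyroid hormone-like peptide gene Pthlh at 242 ± 103 against 2.61 ± 3.46 (5.76, SE 0.261). Pdyn, the prodynorphin gene, went the other way, at 0.553 ± 1.46 against 275 ± 143 CPM (-8.31, SE 0.344), and so did the CRH-binding protein Crhbp, at 3.78 ± 5.06 against 490 ± 161 CPM (-6.87, SE 0.241). Over all 20 neuropeptide and processing genes tested, 8 rose and 7 fell. Htr3a, the ion-channel serotonin receptor, was at 342 ± 93.6 against 0.385 ± 1.02 CPM (8.66, SE 0.285). The nicotinic subunit Chrna4 was at 69.9 ± 17.5 against 26.4 ± 13.3 CPM (1.43, SE 0.217), and the noradrenaline receptor Adra1b at 348 ± 55.5 against 21.2 ± 13.2 CPM (4.25, SE 0.194). Of 8 serotonin and acetylcholine receptors, 3 rose and 3 fell, and all 3 adrenergic and dopamine receptors tested rose. The neuropeptide Y receptors Npy1r (3.94) and Npy2r (6.43) rose, while the oxytocin receptor Oxtr fell by 3.06 on the log2 scale. Sncg was at least 137-fold higher in Vip cells, set against 3 UMIs over all Sst cells.

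Excitability genes were mostly lower in Vip than in Sst cells. Of 16 ionotropic glutamate receptor subunits, 3 rose and 9 fell (median -0.47). The AMPA receptor subunit Gria1 was at 148 ± 43.4 CPM in Vip cells against 497 ± 118 in Sst cells (-1.69, SE 0.127), and Gria3 at 54.1 ± 22.7 against 235 ± 65.6 (-2.27, SE 0.169). Of 26 potassium and HCN channel genes, 5 rose and 13 fell (median -0.46), and of 18 sodium and calcium channel genes, 3 rose and 10 fell (median -0.58). The calcium channel subunit Cacna2d2 was at 5.05 ± 5.63 against 186 ± 31.3 CPM (-5.11, SE 0.284). Of 16 synaptotagmin, complexin and release genes, 3 rose and 10 fell. Calcium-binding proteins (9 of 13 rose, 1 fell, median 0.58) and glucocorticoid receptors and targets (6 of 11 rose, median 1.06) leaned the other way. Among the latter, the mineralocorticoid receptor gene Nr3c2 was at 41.8 ± 9.93 against 4.72 ± 4.35 CPM (3.03, SE 0.382).

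Against Pvalb cells (512 cells, Pvalb at least 2 UMIs), 47.7% of 7773 genes passed, 1816 (23.4%) higher and 1891 (24.3%) lower in Vip cells. Of the 10 caudal genes, 8 rose and 2 fell (median 4.55). Among those that rose were Npas1 at 220 ± 46.2 against 0.141 ± 0.372 CPM (8.84, SE 0.317) and Nr2f2 at 185 ± 49.5 against 1.16 ± 1.23 CPM (6.70, SE 0.271). Of 8 medial genes tested, 3 rose and 5 fell (median -1.95). Calb2 was at 514 ± 281 against 1.53 ± 2.70 CPM (7.54, SE 0.265), the enkephalin gene Penk at 456 ± 287 against 1.77 ± 1.93 CPM (7.92, SE 0.231), and Cnr1 at 1755 ± 393 against 78.2 ± 31.8 CPM (4.45, SE 0.121). The Kv3 potassium channels Kcnc1, at 277 ± 94.6 against 1288 ± 278 CPM (-2.21, SE 0.111), and Kcnc2 (-2.96, SE 0.127) and the sodium channel Scn1a (-2.11, SE 0.136) fell, and 16 of 25 potassium and HCN genes fell while 5 rose (median -1.12). Of 18 sodium and calcium channel genes tested, 8 rose and 7 fell (median 0.19). The release genes Syt2 (-5.86) and Cplx1 (-2.73) fell, whereas Cplx2 was higher, at 703 ± 116 against 44.2 ± 18.0 CPM (4.11, SE 0.136). Of 11 GABA receptor subunits, 7 fell and 3 rose (median -1.09), among them Gabrd (-4.06). All 12 mitochondrially encoded genes tested fell (median -0.99), with mt-Atp6 at 6980 ± 1844 against 15176 ± 1797 CPM, and 12 of 21 activity-induced genes rose while 3 fell (median 0.93).

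The other GABA cells (943 cells below all 3 limits) gave the fewest calls of the 3 class comparisons, and 16.7% of 7616 genes passed, 629 (8.26%) higher and 646 (8.48%) lower in Vip cells. Prox1 (1.60, SE 0.135), Adarb2 (1.08, SE 0.0933) and Htr3a (2.09, SE 0.211) were higher in Vip cells here too, and 7 of 10 caudal genes rose while 2 fell (median 0.67). The medial list did not lean lower here, as 3 of 6 tested genes rose and 1 fell (median 0.25). Of 21 tested genes of the Vip subsets, 15 rose (median 1.87). Among them were Slc5a7 at 53.2 ± 21.8 against 0.429 ± 0.767 CPM (5.70, SE 0.505), Crh (5.24, SE 0.356), Penk (4.43, SE 0.400) and Tac2 (4.0, SE 0.285). Cbln2, a secreted synapse organiser, was at 494 ± 126 against 30.4 ± 12.3 CPM (3.79, SE 0.135). Genes of neurogliaform and other classes were lower in 12 of 15 cases and higher in 1 (median -1.95). Lamp5 was at 13.3 ± 8.55 against 407 ± 52.0 CPM (-5.08, SE 0.205), Reln, the extracellular protein reelin, at 53.7 ± 11.6 against 406 ± 99.9 CPM (-2.78, SE 0.133), and Ndnf, with 0 UMIs in Vip cells, was at least 127-fold lower. Egr1, an activity-induced transcription factor, rose by 1.05 and the clock output factor Dbp fell by 1.17 on the log2 scale. Because this class also holds cells of low depth and unresolved type, its composition was not fixed by markers.

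**Figure D3:**
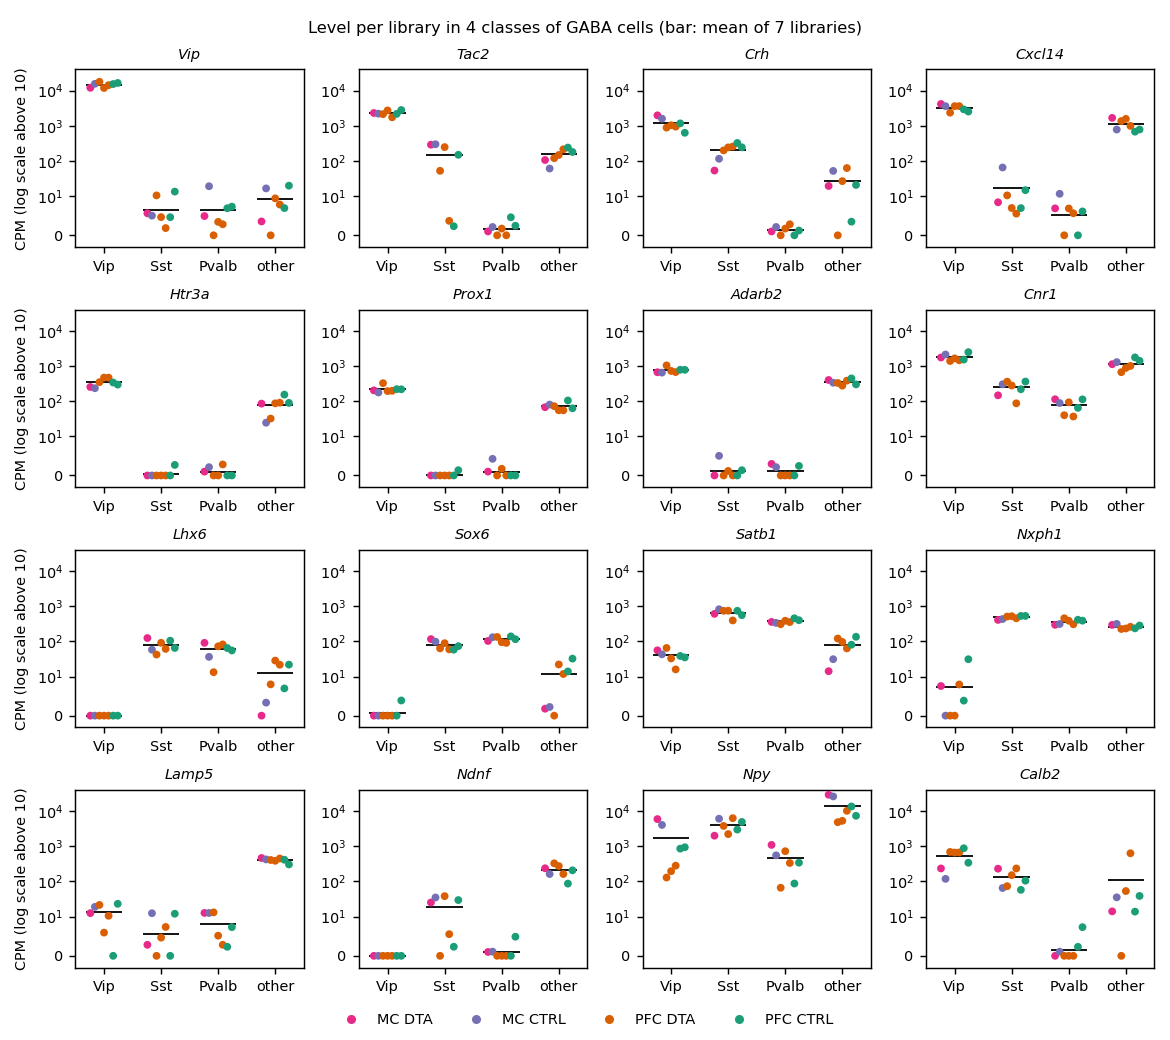
Level in CPM (y axis, log scale above 10) of 16 genes in Vip, Sst, Pvalb and other GABA cells (x axis); each point is a library, coloured by group, and each bar is the mean of 7 libraries. Adarb2 averages 755 CPM in Vip cells against 1.08 CPM in Sst and 1.07 CPM in Pvalb cells, and Lamp5 13.3 CPM against 407 CPM in other GABA cells.

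Motor and prefrontal Vip cells differed in Crh and in some calcium-binding proteins. Over the 7 libraries, with a term for genotype, 0.533% of 5818 genes passed, of which 24 (0.413%) were higher and 7 (0.12%) lower in MC. Crh (chromosome 3, 19693401 to 19695396, minus strand, mm10) was at 1974 CPM in MC DTA and 1592 in MC CTRL, against 885, 1035 and 943 in PFC DTA 1 to 3 and 1167 and 631 in PFC CTRL 1 and 2. Both MC libraries lay above every PFC library, and 11.7% of all tested genes had areas that did not overlap, in either direction (log2 fold change 1.0, SE 0.197, adjusted p 0.0056). The thinned share of cells with Crh did overlap, at 65.3% and 64.4% in MC DTA and MC CTRL against 42.1% to 66.7% in PFC. Calb2 (chromosome 8, 110137502 to 110168210, minus strand) was at 235 and 119 CPM in MC DTA and MC CTRL, against 690, 665 and 669 in PFC DTA and 879 and 341 in PFC CTRL. Both MC libraries lay below every PFC library (-1.78, SE 0.333, adjusted p 0.023), and the thinned share of cells with Calb2 showed the same order, 26.5% and 8.89% against 29.8% to 66.7%. Pcp4, a regulator of calmodulin, was at 1739 and 1706 CPM in the MC libraries, against 697 to 1359 CPM in the PFC libraries (0.93, SE 0.196, adjusted p 0.012). Sncg was at 7.57 and 66.5 CPM in MC, against 109 to 202 CPM in PFC (-2.42, SE 0.460, adjusted p 0.019). Its thinned shares overlapped as well, at 2.04% and 6.67% in MC against 5.13% to 19.3% in PFC.

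Further genes passed in each direction. Lower in MC were Marcksl1, a regulator of actin, at 404 and 285 CPM against 616 to 998 CPM (-1.08, adjusted p 0.0065), the cyclin gene Ccnd2 (-1.04, adjusted p 0.029), Fxyd6, a modulator of the sodium pump (-0.78, adjusted p 0.048), Vwc2, a secreted antagonist of bone morphogenetic proteins (-1.12, adjusted p 0.037), and Calb1 (-2.24, adjusted p 0.038, on 4 and 3 UMIs in the MC libraries). Higher in MC were the steroid-responsive factor Klf9, at 197 and 219 against 59.3 to 129 CPM (1.18, adjusted p 0.014), the transcriptional cofactor Lmo1 (1.83, adjusted p 0.014), the NMDA receptor subunit Grin3a (1.63, adjusted p 0.042), the cadherin Cdh6 (2.04, adjusted p 0.0068) and mt-Co1 (0.77, adjusted p 0.037). Of 14 alternatives, mt-Co1 passed in 3, Grin3a and Fxyd6 in 4 each, Vwc2 in 6 and Ccnd2 and Klf9 in 8 each, while Calb1 passed in 6 of 11. The adhesion molecule Cadm2, named after its values were seen, was at 495 and 580 CPM in MC against 142 to 345 CPM in PFC (1.5, SE 0.217, adjusted p 5.1e-05). Named in the same way were the guidance factor Sema3c (1.26, adjusted p 0.0017), the synaptic adhesion gene Clstn2 (1.40, adjusted p 0.0046) and the adhesion gene Opcml (1.19, adjusted p 0.0047).

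The area calls needed both MC libraries. Without MC DTA, 3 genes passed, and without MC CTRL, 11, where the lone MC library was taken to vary like the PFC ones. The adjusted p was then 0.65 and 0.19 for Crh, 0.071 and 0.34 for Calb2, 0.42 and 0.59 for Pcp4 and 0.37 and 0.49 for Marcksl1, each in the same direction as before. Calb2 also missed the threshold without PFC DTA 1 (0.27), and Sncg without MC DTA (0.54), PFC DTA 1 (0.17) or PFC CTRL 2 (0.063). DESeq2 called 14 genes, 13 of them among the 31, and Klf9 was not one of these (adjusted p 0.27). Nor did it call Lmo1, Grin3a, Cdh6, mt-Co1, Ccnd2, Vwc2, Calb1, Clstn2, Opcml or Selenop. Its 14 calls included Cldn5, Flt1, Itm2a and Nfkbia, whose spread over cells is given below.

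By list, the area calls were few in number, where 0.533% of all 5818 genes passed. Of 18 genes of the Vip subsets, 2 rose and 2 fell, with 8 at an unadjusted p under 0.05. Of 12 calcium-binding proteins, 1 rose and 2 fell, with 4 at an unadjusted p under 0.05. Both lists thus had a larger share of calls than all genes. They were chosen with earlier results of these data known, and no set test was run. No potassium or HCN channel (0 of 21, median 0.38, 2 at an unadjusted p under 0.05) and no GABA receptor (0 of 10, 2 at an unadjusted p under 0.05) passed with edgeR or with DESeq2. Of 12 mitochondrially encoded genes, 1 rose, and all 12 had a fold change above 0 (median 0.57, against 0.00 over all genes). The median mitochondrial share of UMIs per Vip cell was 2.80% in MC DTA and 5.39% in MC CTRL, against 1.96% to 3.23% in the PFC libraries, and its part in this was not tested. Of 21 activity-induced genes, 0 passed with edgeR or DESeq2, 5 had an unadjusted p under 0.05, and 2 had a fold change above 0 (median -0.87). Fos, for example, was at 174 and 147 CPM in MC DTA and MC CTRL, against 259, 246 and 961 in PFC DTA and 514 and 128 in PFC CTRL, so that the groups overlapped.

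Some area calls rested on UMIs held largely by 1 cell of a library. Cldn5, a tight-junction gene of brain endothelium, was at 111 and 76.0 CPM in the MC libraries against 0 to 3.87 CPM in PFC (log2 fold change 5.15), and 43 of its 44 UMIs in MC DTA and 13 of its 16 in MC CTRL were in 1 cell each. Flt1 (6.10) and Itm2a (3.79) had 35 of 36 and 31 of 35 UMIs in 1 MC DTA cell, and 14 of 15 and 21 of 24 in 1 MC CTRL cell. Selenop (2.0) and Nfkbia (1.90) had 41 of 50 and 45 of 61 UMIs in 1 MC DTA cell, but 8 of 18 and 14 of 23 in 1 MC CTRL cell. The summed level of the 4 endothelial markers was also higher in both MC libraries, as given above, and its part in these calls was not tested beyond the removals that follow. With the cell holding most UMIs of a gene removed from each library, 24 genes passed, 19 of them also in the first 31, and Nfkbia then had a log2 fold change of 0.55 (adjusted p 0.91). With all cells holding at least 5 non-neuronal marker UMIs removed, 22 passed, 15 of them shared.

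Npy, the neuropeptide Y gene (chromosome 6, 49822710 to 49829507, plus strand), was higher in both MC libraries, and its test turned on 1 cell. It was at 5911 CPM in MC DTA and 4033 in MC CTRL, against 129, 196 and 281 in PFC DTA 1 to 3 and 856 and 937 in PFC CTRL 1 and 2. Every MC library lay above every PFC library, but 1606 of the 2342 Npy UMIs of MC DTA came from 1 cell, and the difference did not pass (log2 fold change 3.72, adjusted p 0.22). Without the top cell of each library the levels were 1858 and 3202 CPM in MC against 43.2 to 763 CPM in PFC, and the difference passed (3.12, adjusted p 1.4e-08). DESeq2 also called it on all cells (adjusted p 0.00011), and over 14 alternatives it passed in 5, with adjusted p between 5.9e-20 and 0.44. Cells with a Npy UMI, thinned, made up 32.7% and 55.6% of MC Vip cells against 13.0% to 29.8% of PFC Vip cells. In other interneurons Npy was found in 52.0% and in excitatory neurons in 8.34% of thinned cells, with 4.66% and 16% of excitatory neurons in MC DTA and MC CTRL against 3.54% to 10.2% in the PFC libraries. The higher Npy level in MC was not particular to Vip cells. Other GABA cells, those below all 3 limits, had 29105 and 26046 CPM in MC DTA and MC CTRL, against 4831 to 13512 CPM in PFC. Within Sst cells and within Pvalb cells the areas overlapped. Area was not tested in these classes.

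**Figure D4:**
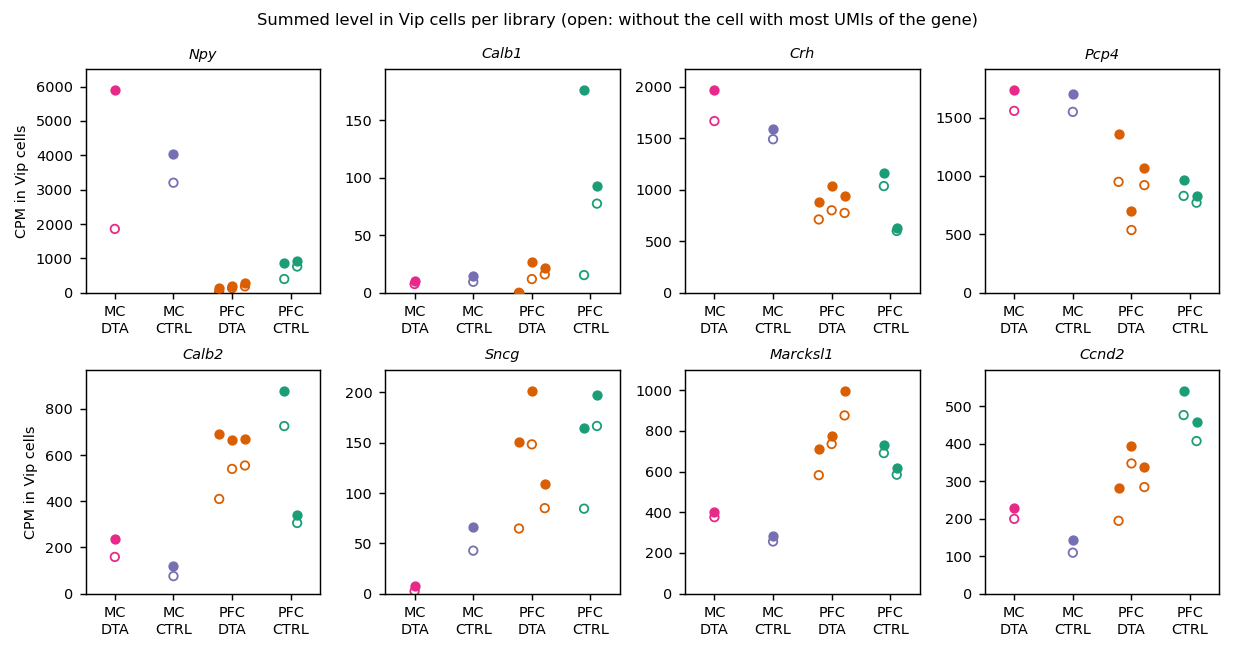
Summed level in Vip cells (y axis, CPM, linear) of 8 genes by group (x axis); each filled point is a library and each open point the same library without the cell holding most UMIs of that gene. Npy and Crh lie higher in both MC libraries than in any PFC library, Calb2 and Marcksl1 lower, and Npy lies at 129 to 281 CPM in PFC DTA against 856 and 937 CPM in PFC CTRL.

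Ablation of the ipRGCs that use Brn3b was compared within the PFC, where Npy and Calb1 passed as lower in DTA Vip cells and no gene passed as higher. Of 5535 genes tested between 3 DTA and 2 CTRL libraries, 2 passed, or 0.0361%, with 0 higher and 2 lower, whereas 123 and 76 had an unadjusted p under 0.05. The count was 8 without PFC CTRL 1 and 8 without PFC CTRL 2, 1 without PFC DTA 1 and 0 without PFC DTA 2. Npy stood at 129, 196 and 281 CPM in DTA 1 to 3, against 856 and 937 CPM in CTRL 1 and 2. No DTA library reached the lower CTRL library (202 ± 76.2 against 897 ± 57.6 CPM, where 16.9% of all tested genes had groups that did not overlap; log2 fold change -1.99, SE 0.258, adjusted p 0.00011). The deep libraries had 196 and 281 CPM in DTA against 856 CPM in CTRL, and the shallow ones 129 against 937 CPM. Each depth has 1 CTRL library, and the part of depth was not tested. The 129 CPM of PFC DTA 1 were 6 UMIs, 4 of them in 1 cell. The call was made in 13 of 14 alternatives, with log2 fold changes from -2.40 to -1.88, and was lost without PFC DTA 2 (adjusted p 0.059). Among these 14, the fit on libraries of at least 20 Vip cells is the same as the fit without PFC DTA 1. DESeq2 called Npy and no other gene. In excitatory neurons Npy was at 56.1, 20.7 and 39.2 CPM in DTA, against 61.7 and 62.0 CPM in CTRL, groups that did not overlap either, and the part of this in the Vip result was not tested. An exact permutation test on the 5 levels gave p = 0.1, the smallest it can give.

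The share of cells with a Npy UMI did not separate the genotypes. Cells with a Npy UMI were 3 of 19, 11 of 56 and 16 of 48 in DTA, against 9 of 39 and 28 of 109 in CTRL (22.9% ± 9.22 against 24.4% ± 1.85, exact permutation p = 0.9). At least 5 Npy UMIs were found in 0, 4 and 6 DTA cells and in 4 and 11 CTRL cells. In CTRL 1, 119 of 223 Npy UMIs came from 1 cell and 67 from another. The removal that follows takes out only the cell with 119. Without the top cell of each library the levels were 43.2, 134 and 186 CPM in DTA, against 399 and 763 CPM in CTRL, still apart. The 43.2 CPM of PFC DTA 1 lie below the 64.7 CPM that 3 UMIs are worth there.

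**Figure D5:**
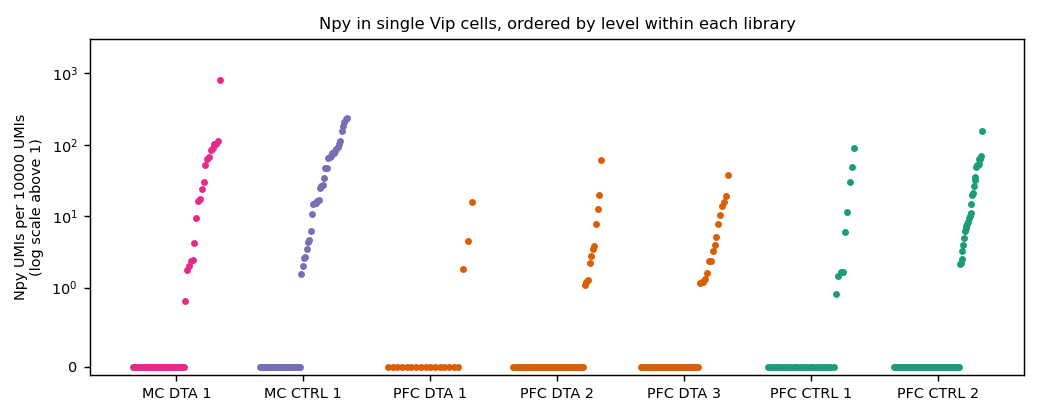
Npy UMIs per 10000 UMIs (y axis, log scale above 1) in each single Vip cell, ordered by level within each library (x axis). Most cells lie at 0 in the PFC libraries, and 1 MC DTA cell with 1606 Npy UMIs stands far above the rest.

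Calb1, which encodes the calcium buffer calbindin, rested on few UMIs. It was at 0, 26.7 and 21.2 CPM in DTA 1 to 3, against 177 and 93.0 CPM in CTRL 1 and 2, and the groups did not overlap (-2.56, SE 0.425, adjusted p 0.0047). In CTRL 1, 42 of its 46 UMIs lay in 1 cell. DESeq2 did not call it (adjusted p 0.24), and it passed in 1 of 5 fits that left out a library. Genes next in line did not pass: the ribosomal protein gene Rps29 had a log2 fold change of 1.17 (adjusted p 0.35), the stress-induced Ddit4 1.71 (0.76), the phospholipid-phosphatase relative Plppr3 -1.25 (0.47) and the potassium channel Kcnk2 -1.61 (0.76).

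The lists gave no further genotype calls in the PFC. With edgeR, 1 of 16 neuropeptide genes passed (Npy), as did 1 of 12 calcium-binding genes (Calb1), and both count among the 8 tested genes of other interneuron classes. Of 16 genes of the Vip subsets 0 passed, 1 had an unadjusted p under 0.05, and DESeq2 called 0. Of 21 activity-induced genes 0 passed, 0 had an unadjusted p under 0.05, and DESeq2 called 0 (median 0.39, against 0.00 over all genes). Of 7 clock genes tested 0 passed by either tool, with 0 at an unadjusted p under 0.05, and of 19 potassium and HCN channels likewise 0 passed, with 3 fold changes above 0 (median -0.22). All 10 heat shock genes tested had fold changes above 0 (median 0.29), with 2 at an unadjusted p under 0.05 and 0 called by either tool. The peptides Vip, Tac2, Crh and Cck overlapped between the genotypes, for example Crh at 885, 1035 and 943 CPM in DTA against 1167 and 631 CPM in CTRL.

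Whether the genotype difference was another in Vip cells than in the remaining GABA cells of the PFC was tested as an interaction, with the library as a block. Of 7141 genes 0.112% passed, 4 each way (0.056% above and 0.056% below 0), and the count was 14 without PFC CTRL 2 and 5 without PFC DTA 3. For Npy the log2 difference between DTA and CTRL was lower in Vip cells (-1.92, SE 0.224, adjusted p 2.0e-12). The remaining GABA cells here pool all GABA cells that were not Vip cells. In them Npy was at 3280, 2678 and 6060 CPM in DTA, against 4423 and 4430 CPM in CTRL, and the groups overlapped. In the other GABA class alone, below all 3 limits, Npy was at 4831, 5287 and 10166 CPM in DTA. The CTRL levels of that class were 13512 and 7329 CPM, so its groups overlapped too. Its genotype difference was not tested. For Calb1 the value was -3.09 (SE 0.385, adjusted p 5.3e-11). The remaining GABA cells had 396, 416 and 452 CPM of it in DTA against 340 and 280 CPM in CTRL. Both passed in 12 of 12 alternatives and were the 2 genes that DESeq2 called. Cort, the cortistatin gene (-2.02, adjusted p 0.049), and Kcnk2 (-1.76, adjusted p 0.049) were below 0 with edgeR, but each passed in only 4 of 12 alternatives, with Cort between -3.78 and -0.63. The metallothionein Mt1 (1.51, adjusted p 0.00043) and Tnfaip8l3 (1.68, adjusted p 0.049) were above 0, and passed in 6 and 2 of 12 alternatives. The myelin genes Mag (4.88) and Mobp (2.21) passed too, but 141 of 145 Mag UMIs and 112 of 124 Mobp UMIs of PFC DTA 3 were in 1 cell, in the library with the highest oligodendrocyte marker sum.

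In the MC there was 1 library per genotype, and no test was made. Intervals are exact Poisson intervals at 95% and cover counting error only. Npy was at 5911 CPM (5674 to 6156) in DTA against 4033 CPM (3767 to 4314) in CTRL, a log2 ratio of 0.55, above 0 where the PFC value was below it. Without the top cell of each library, Npy was at 1858 CPM in DTA and 3202 in CTRL. Calb1 had 4 UMIs in DTA and 3 in CTRL. Of 1337 genes with at least 30 UMIs in each library, 14, or 1.05%, differed by more than 2-fold. Mt1 was at 709 CPM in DTA against 290 CPM in CTRL (log2 ratio 1.29), the matricellular gene Nov at 401 against 162 CPM (1.31) and Rtl8b at 341 against 147 CPM (1.21). Qdpr, a pteridine reductase gene, was at 83.3 CPM in DTA against 337 CPM in CTRL (-2.02), and the glial-enriched Gpm6b at 146 against 366 CPM (-1.32). The oligodendrocyte marker sum moved with these, at 93.4 CPM in MC DTA against 2423 CPM in MC CTRL, and its part in them was not tested.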

How the data were processed

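Single-cell 3' libraries were made with 10x Genomics V2 chemistry, per the labels' protocols. Per the submitters' processing notes, Cell Ranger 3.0.2, Seurat and mm10 were used, with no role stated for any of them. The deposited values are counts of UMIs per gene and cell. Every deposited cell was used, and a gene absent from a library's table was taken as 0. The members, gene lists and tests were chosen with earlier results of these data known.

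UMI counts were summed per library over the cells of a class (46344 to 396192 UMIs in Vip cells), and CPM is relative to that sum. The test was the robust quasi-likelihood test of edgeR 4.0.16, after a low-count filter (filterByExpr, minimum 10 counts) and TMM scaling, with Benjamini-Hochberg adjustment within a comparison and a threshold of 0.05. The SE was derived from the log2 fold change and its F statistic (size over root of F). DESeq2 1.42.0 was a second tool. The tests were checked on simulated counts with a fixed dispersion. Of 100 genes set to a 2-fold change, the genotype test called 32, the area test 33 and the interaction test 2. At 4-fold these tests called 91, 100 and 42 of 100. The class comparisons called 83 or 84 at 2-fold and 100 at 4-fold. A gene that was not called may therefore still differ. Scrublet of scanpy 1.11.5 gave doublet calls; in PFC DTA 3, where it called 0 cells, the top 295 scores were taken. Doublets stayed in except in an alternative.

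Named genes were those past the threshold with the largest folds (8 each way; for the genotype and interaction, the smallest p where few passed), the called or lowest-p members of each list, and in the MC the largest ratios. Genes named outside this rule are marked as chosen after their values were seen. Fos and the subset genes are shown as examples. Some genes under this rule are not reported here. Alternatives were RLE scaling, no filter, DESeq2, a minimum of 5 Vip UMIs, doublets removed, libraries of at least 20 Vip cells, a replicate block and each library left out. Removal of the top cell of each gene and library, and of cells with at least 5 non-neuronal marker UMIs, was chosen after seeing the data.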

Additional observations from a re-analysis of the deposited data

Results flagged for a closer look

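With edgeR, 8 genes passed the test of whether the DTA against CTRL difference in PFC Vip cells was another than in all remaining GABA cells. DESeq2 called Npy and Calb1 and none of the other 6. For Npy the difference also had another sign in the MC. Npy had a log2 ratio of 0.551 between the single MC DTA and MC CTRL libraries, while it was -1.99 in the PFC, and the difference between the areas was not tested. Without the top cell of each library, MC DTA lay below MC CTRL, at 1858 against 3202 CPM. Against all remaining GABA cells of the PFC, edgeR's interaction test gave -1.92 for Npy and -3.09 for Calb1 on the log2 scale. It gave -2.02 for Cort and -1.76 for Kcnk2, and 1.51 for Mt1 and 1.68 for Tnfaip8l3. Of 12 alternatives, Npy and Calb1 passed in all 12, Mt1 in 6, Cort and Kcnk2 in 4 each and Tnfaip8l3 in 2. For the myelin genes it gave 4.88 for Mag and 2.21 for Mobp, with 141 of 145 Mag UMIs of PFC DTA 3 in 1 cell.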

How the results depend on the processing

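The class comparisons kept their counts of calls within 1.5 times under every alternative run. The genotype count of 2 was 7 with no filter, 1 with DESeq2, without top cells or with only libraries of at least 20 Vip cells, and 0 to 8 with a library left out. The area count of 31 was 67 with no filter, 14 with DESeq2, 15 with at least 5 Vip UMIs, 19 without doublets and 3 to 43 with a library left out. The interaction count of 8 was 2 with DESeq2, 4 without top cells, 5 without cells holding non-neuronal UMIs and 5 to 14 with a library left out. Whether the replicate numbers pair the samples could not be told. With 2 CTRL libraries, their deviations from the group mean mirror each other. Same-numbered PFC libraries gave r = 0.043 and 0.019, and the same DTA libraries gave -0.043 and -0.019 with the other CTRL library. A replicate block gave 11 genotype calls. The Vip share difference of 0.221 points was -0.572 as a share of all cells, -0.310 without doublets, -0.781 in pairs under the replicate block, and -6.44 to 6.88 with a library left out.

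Signs turned for genes that were not called in those comparisons. Under the replicate block the genotype values of Satb1 and Elfn1 were 0.17 and 0.34. With a library left out, the genotype value ran from -0.62 to 0.24 for Elfn1, -0.79 to 0.20 for Gabbr2 and -0.75 to 0.32 for Scn1a, and the area value from -0.0100 to 0.70 for Sp8, -0.54 to 0.027 for Npy2r and -0.28 to 0.89 for Chrna4. The interaction value ran from -0.54 to 0.093 for Maf, -1.01 to 0.16 for Dlx5, -5.47 to 3.69 for Crhbp, -0.65 to 0.34 for Adra1b and -1.22 to 0.12 for Cacna2d3. For Adra1b it was 0.0083 with RLE, 0.017 with no filter and 0.071 without top cells. The cause was not tested. Depth limits low genes: 3 UMIs are worth 7.57 CPM in MC DTA and 64.7 CPM in PFC DTA 1.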
